A study of Mus musculus with 18 samples.

Results

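The genes described here are 9 core members of transforming growth factor beta (TGF-beta) signalling, chosen by symbol: Tgfb1, Nrros, Tgfbr1, Tgfbr2, Smad2, Smad3, Smad4, Smad7 and Ski. They are 9 of the 55536 genes in the count table, and all 9 passed the filter on low counts in each comparison. They were measured by RNA sequencing in striatal microglia of adult C57BL/6 mice of 4 genotypes: 5 WT, 3 Tyrobp-KO, 5 Q175 and 5 Q175;Tyrobp-KO libraries. Q175 mice carry 1 mutant Htt allele with human HTT exon-1 and an expanded CAG repeat, a model of Huntington's disease, and Tyrobp-KO mice lack Tyrobp, the adaptor through which TREM2 and other myeloid receptors signal, through a constitutive deletion. Q175;Tyrobp-KO mice carry both changes. The comparisons ask whether the Q175 allele or the loss of Tyrobp went with a different level of TGF-beta pathway transcripts. Females were 1 of 5 in WT, 2 of 3 in Tyrobp-KO, 4 of 5 in Q175 and 2 of 5 in Q175;Tyrobp-KO.

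TGF-beta 1 is secreted in a latent form that is tethered on the surface of microglia by NRROS (also known as LRRC33) and released with the help of the integrin alpha-V beta-8 on neighbouring cells. The free ligand binds TGFBR2, which activates TGFBR1, which phosphorylates SMAD2 and SMAD3. These join SMAD4 and enter the nucleus, where SKI holds back their targets, while SMAD7 is an induced brake on the receptor. In the brain this pathway is known for keeping microglia in their resting, tissue-specific state, and mice without the ligand or receptor in microglia lose genes such as P2ry12, Tmem119 and Sall1.

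Libraries held between 11260410 and 29771983 counts. Levels are given as normalized counts, which are counts scaled by TMM to the mean library size. Microglia were enriched with magnetic beads that bind CD11b, an integrin chain of myeloid cells, and the lowest value of any of the 18 microglial markers in any library was 1183 normalized counts (Aif1). Their level (the geometric mean over the list) was between 10647 and 25736, and lay 2.44 ± 0.59 log2 units (SD, n = 18) above the highest of the other marker lists. Other cells were also represented: the level of 10 oligodendrocyte markers was between 1708 and 7739, that of 15 astrocyte markers between 339 and 2349, and that of 10 neuronal markers between 191 and 1012. Of 8 border macrophage markers, Lyve1 and Pf4 were at 0 in at least 1 library, Mrc1 lay between 81.4 and 387 normalized counts, and Stab1, a scavenger receptor, stood at 3435 to 10844. In these bulk libraries fewer microglia and less RNA per microglia cannot be told apart. Tyrobp itself had between 3642 and 8114 normalized counts in WT and Q175 libraries and between 176 and 409 in the Tyrobp-null libraries, matching every label.

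The promoters of the ligand, its receptors and its tether are shown because Tgfb1, Tgfbr2 and Nrros moved together across libraries and Tgfbr1 did not move with them. Each run gives the 250 bases before the RefSeq start in GRCm38.p6, from 5′ to 3′ on the gene's strand. Capitals mark matches on either strand to GGGCGG (the GC box bound by SP1-type factors), CAGAC (the SMAD box) and GAGGAA (a core of PU.1 and other ETS sites). No match of one motif overlapped a match of another.
Tgfb1, chr7:25686752-25687001, plus strand: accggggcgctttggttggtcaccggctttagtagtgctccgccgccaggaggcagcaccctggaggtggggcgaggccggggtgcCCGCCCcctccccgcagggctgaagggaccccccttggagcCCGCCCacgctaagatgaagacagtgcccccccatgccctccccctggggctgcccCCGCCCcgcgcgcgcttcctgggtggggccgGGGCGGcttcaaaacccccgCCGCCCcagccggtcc
Tgfbr2, chr9:116175364-116175613, minus strand: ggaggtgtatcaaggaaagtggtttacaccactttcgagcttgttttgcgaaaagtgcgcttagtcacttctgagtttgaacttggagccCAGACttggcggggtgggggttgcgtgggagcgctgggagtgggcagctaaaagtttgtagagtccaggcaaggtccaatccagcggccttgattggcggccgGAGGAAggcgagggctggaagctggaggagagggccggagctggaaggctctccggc
Nrros, chr16:32165595-32165844, minus strand: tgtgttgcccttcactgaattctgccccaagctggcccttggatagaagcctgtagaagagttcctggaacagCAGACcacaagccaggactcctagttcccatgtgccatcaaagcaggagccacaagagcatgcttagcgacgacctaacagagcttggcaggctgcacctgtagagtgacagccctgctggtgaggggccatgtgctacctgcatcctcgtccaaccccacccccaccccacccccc
Tgfbr1, chr4:47352972-47353221, plus strand: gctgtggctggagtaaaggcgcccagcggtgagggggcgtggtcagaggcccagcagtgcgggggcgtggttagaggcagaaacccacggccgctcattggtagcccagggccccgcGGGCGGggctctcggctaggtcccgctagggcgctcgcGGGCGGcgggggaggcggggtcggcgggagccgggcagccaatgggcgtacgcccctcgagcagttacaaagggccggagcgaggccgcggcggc

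GC boxes were found 5 times before Tgfb1, 2 times before Tgfbr1, and in neither of the other windows printed. The windows of Ski and Smad3, which moved with Tgfb1 and are not printed, held 5 and 2 GC boxes and neither other motif. They occurred in 32.7% of the 32817 RefSeq promoter windows of the same length. The SMAD box was found once each before Tgfbr2 and Nrros and in 42.2% of all windows. The ETS core was found once, 57 bases before the Tgfbr2 start, and in 23.3% of all windows. GC content of the window was 75.2% for Tgfb1, 74.8% for Tgfbr1, and 58.4% for both Tgfbr2 and Nrros, with a median of 52.4% over all windows.

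The receptors were the most abundant transcripts of the 9. Per length of transcript, Tgfbr1 had 347 ± 77.9 RPKM (counts per kilobase of exon scaled for library depth, mean ± SD of 18 libraries), and Tgfbr2 followed with 42.5 ± 15.5 RPKM. Tgfbr1 lay above Tgfbr2 in 18 of 18 libraries with no overlap of their ranges. Next came Ski (37.1 ± 14.3 RPKM), Smad7 (28.4 ± 5.66), Nrros (25.1 ± 8.01), Tgfb1 (23.0 ± 11.3), Smad3 (18.3 ± 5.49), Smad4 (15.8 ± 2.0) and Smad2 (8.88 ± 1.36). From Tgfbr2 down to Smad4, each neighbour in this order stood above the next in only 12 to 14 of 18 libraries, so the order of neighbours is within the spread. Genes further apart in this order were not compared in this way. Smad4 exceeded Smad2 in 18 of 18 libraries, although their ranges over libraries overlapped.

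The rest of the pathway was represented unevenly, as the plot of levels per length shows. Among ligands, Tgfb1 stood at 23.0 RPKM while Tgfb3 had 1.80 and Tgfb2 0.41 RPKM, and the tether Nrros stood at 25.1 while Lrrc32, the tether used by regulatory T cells and platelets, had 0.16 RPKM. Itgb5, an integrin beta chain, had 163 RPKM, Itgav, the alpha chain that pairs with it, 22.5, and Itgb8, the partner of Itgav in releasing TGF-beta, 4.22. The co-receptor Tgfbr3 was low at 1.47 RPKM and Eng, another co-receptor, stood at 11.7. Among nuclear brakes, Skil, the close relative of Ski, had 39.7 RPKM, near Ski itself. The BMP ligands Bmp2, Bmp4 and Bmp7 each had under 1 RPKM, whereas their receptors Bmpr2 and Bmpr1a had 11.2 and 10.9.

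**Figure D1:**
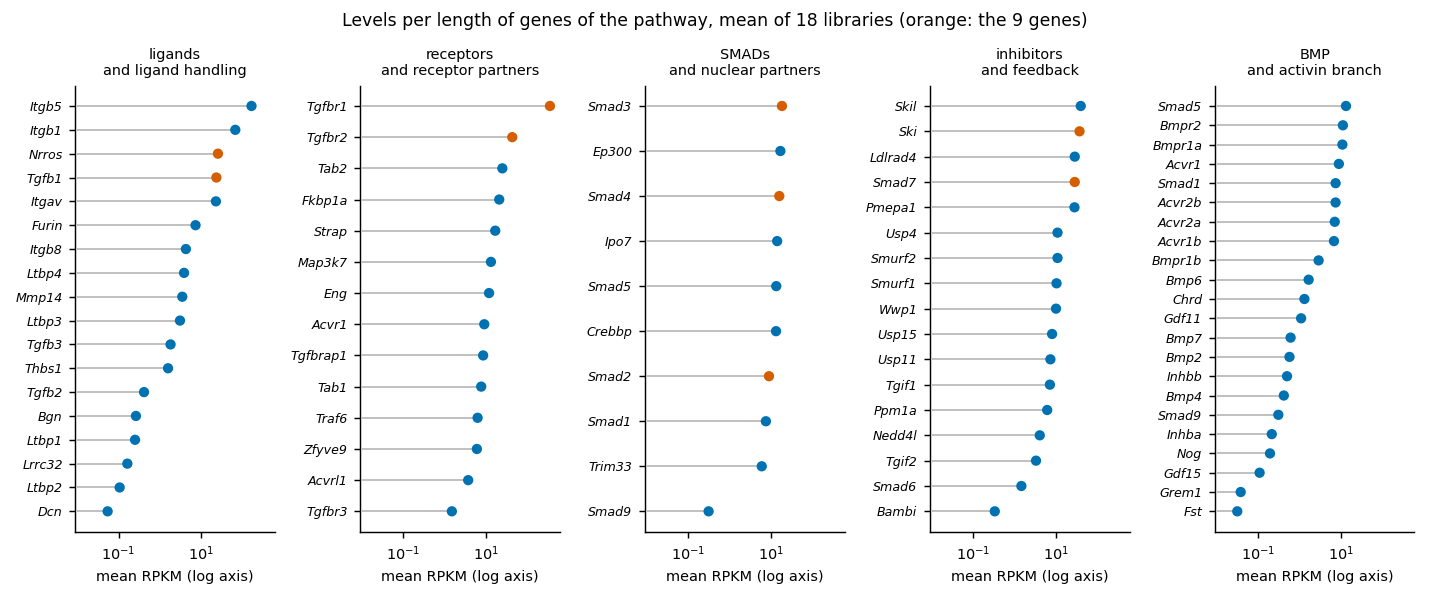
Mean level per transcript length (RPKM, log axis, 18 libraries) of the genes listed for 5 parts of the pathway, with the 9 core genes in orange. Tgfbr1 at 347 RPKM stands above the other receptors and receptor partners, and Tgfb1 at 23.0 above Tgfb2 and Tgfb3. Genes under 0.01 RPKM are not drawn.

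The ligand Tgfb1 (ENSMUSG00000002603, chr7:25687002-25705077, plus strand, GRCm38) varied more than any other member within genotypes. In WT libraries 1, 2, 6, 7 and 8 it had 674, 1374, 540, 3757 and 3319 normalized counts. In Tyrobp-KO libraries 15, 19 and 20 it had 2691, 3123 and 1179. In Q175 libraries 3, 4, 9, 14 and 17 it had 1629, 532, 2483, 1340 and 2443, and in Q175;Tyrobp-KO libraries 5, 11, 12, 13 and 16 it had 1406, 2677, 3066, 3088 and 3094. WT holds both the highest library (7) and the second lowest (6), and the ranges of all 4 genotypes overlap. The highest library stood 7.06-fold above the lowest, and the within-genotype SD was 0.92 on the log2 scale, above that of 97.0% of the 10055 genes with at least 10 CPM, whose median SD was 0.31. Tgfb1 lies 4.73 Mb from Tyrobp on chromosome 7.

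Nrros, which tethers latent TGF-beta 1 (ENSMUSG00000052384, chr16:32142785-32165594, minus strand), followed a similar order of libraries. It had 1100, 1451, 1175, 2680 and 2779 normalized counts in WT libraries 1, 2, 6, 7 and 8, and 2448, 2343 and 1217 in Tyrobp-KO libraries 15, 19 and 20. It had 2245, 830, 1938, 1562 and 1888 in Q175 libraries 3, 4, 9, 14 and 17, and 1453, 2287, 2162, 2615 and 2549 in Q175;Tyrobp-KO libraries 5, 11, 12, 13 and 16. WT 7 and 8 were again the highest and Q175 4 the lowest, and 4 of the 5 lowest libraries were also among the 5 lowest for Tgfb1. Nrros ranged 3.35-fold between libraries.

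The receptor genes differed from each other. Tgfbr2 (ENSMUSG00000032440, chr9:116084293-116175360, minus strand), the ligand-binding receptor, had 3904, 5882, 2942, 9277 and 9694 normalized counts in WT 1, 2, 6, 7 and 8 and 7095, 8293 and 3564 in Tyrobp-KO 15, 19 and 20. It had 7370, 2332, 7348, 3713 and 6043 in Q175 3, 4, 9, 14 and 17 and 4626, 8526, 7683, 8482 and 8250 in Q175;Tyrobp-KO 5, 11, 12, 13 and 16. Its 5 lowest libraries were the 5 lowest for Tgfb1, and it ranged 4.16-fold.

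Tgfbr1 (ENSMUSG00000007613, chr4:47353222-47414931, plus strand), the signalling receptor kinase, had another order of libraries. It had 56644, 47316, 58907, 30068 and 33418 normalized counts in WT 1, 2, 6, 7 and 8 and 48935, 44526 and 46212 in Tyrobp-KO 15, 19 and 20. It had 34030, 45643, 32850, 36366 and 53203 in Q175 3, 4, 9, 14 and 17 and 28848, 46755, 37700, 32537 and 34909 in Q175;Tyrobp-KO 5, 11, 12, 13 and 16. WT 6 was the highest library and WT 7 the second lowest, none of its 5 lowest libraries were among the 5 lowest for Tgfb1, and it ranged 2.04-fold.

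The effectors split in the same way. Smad3 (chr9:63646767-63757994, minus strand) had 1166, 1320, 1269, 2739 and 2688 normalized counts in WT 1, 2, 6, 7 and 8, and 1601, 2237 and 1356 in Tyrobp-KO 15, 19 and 20. It had 2093, 1200, 2299, 1284 and 1395 in Q175 3, 4, 9, 14 and 17, and 1531, 2369, 2290, 2443 and 2229 in Q175;Tyrobp-KO 5, 11, 12, 13 and 16. WT 7 and 8 were the highest libraries here too. Smad2, the other receptor-activated SMAD of the pathway, ranged from 1115 in WT 7 to 1887 in WT 6, the same pair of libraries that were second lowest and highest for Tgfbr1. Smad4, the shared partner, ranged from 667 in Q175 4 to 1264 in Tyrobp-KO 19, and in Q175;Tyrobp-KO it kept to 1057 to 1141. Its within-genotype SD of 0.22 (log2) was above that of only 19.2% of genes, and it shares part of its locus with a processed pseudogene on the other strand, whose reads these libraries without strand information would not separate.

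Of the inhibitors, Ski (chr4:155154075-155222592, minus strand) behaved like Tgfb1, from 1624 in Q175 4 to 6497 in WT 7. Its WT libraries fell into 1733 to 2576 for replicates 1, 2 and 6 and 6190 and 6497 for replicates 8 and 7. Smad7, an induced feedback inhibitor, ranged from 1443 in WT 6 to 3095 in Tyrobp-KO 20, with medians of 2640 in WT, 2815 in Tyrobp-KO, 2098 in Q175 and 2419 in Q175;Tyrobp-KO.

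**Figure D2:**
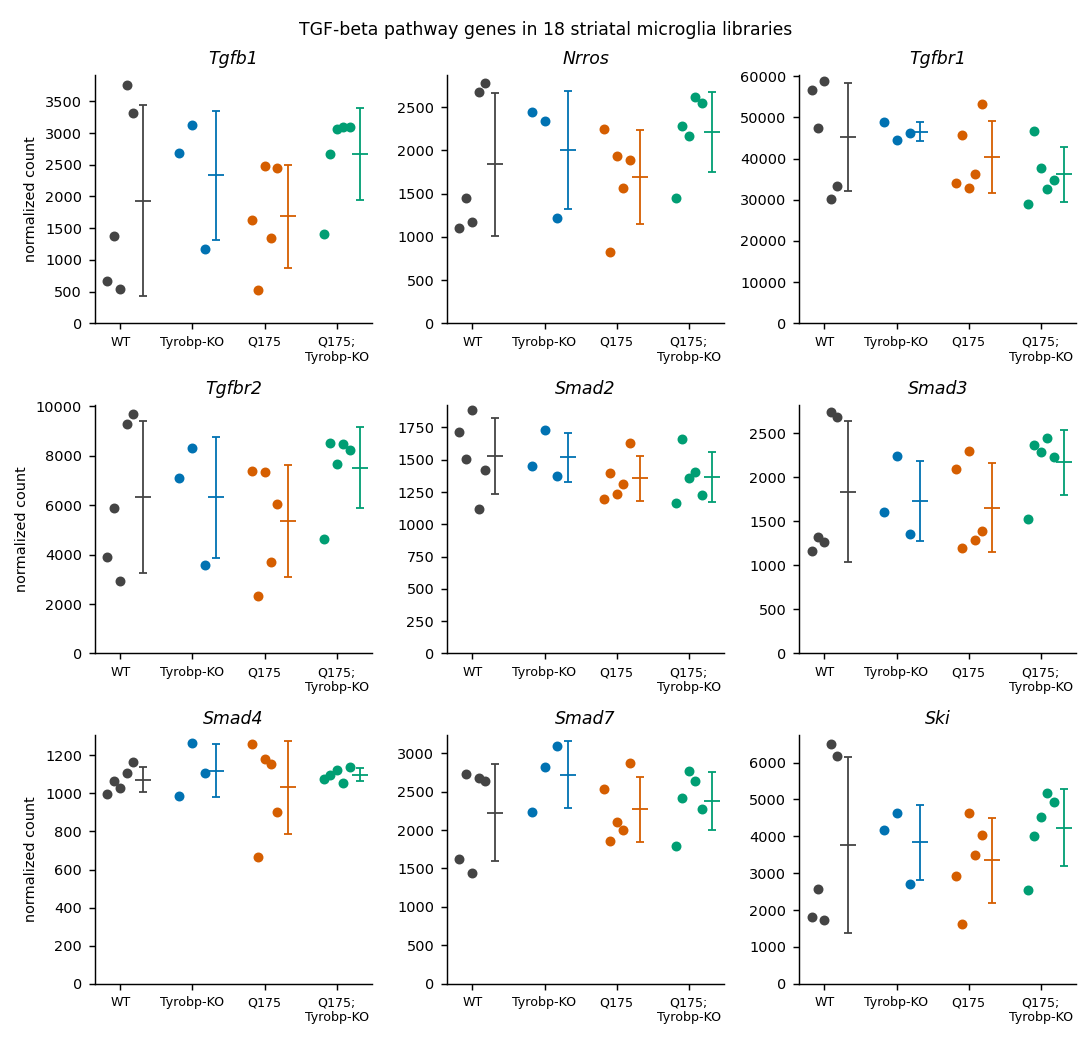
Normalized counts of the 9 genes in each library (points) by genotype, with the mean and SD of the group beside them (5 WT, 3 Tyrobp-KO, 5 Q175 and 5 Q175;Tyrobp-KO libraries; axes start at 0). The groups overlap in every panel, and WT holds libraries at both ends for Tgfb1, from 540 to 3757.

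**Figure D3:**
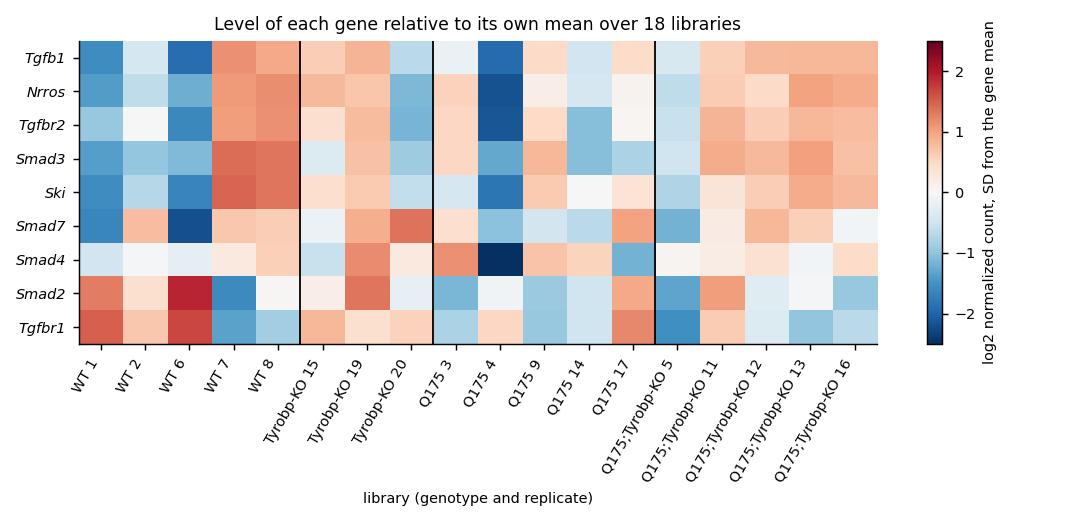
Log2 normalized count of each gene in each of the 18 libraries, as SDs from the gene's own mean, with lines between genotypes. Tgfb1, Nrros, Tgfbr2, Smad3 and Ski are low together in WT 1 and 6 and Q175 4 and high together in WT 7 and 8, while Smad2 and Tgfbr1 are high in WT 1 and 6 and low in WT 7.

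Tgfb1, Nrros, Tgfbr2, Smad3 and Ski varied together over libraries of the same genotype. Across the 18 libraries, log2 Tgfb1 correlated with Ski (Pearson r = 0.97, Spearman rho = 0.94), Nrros (r = 0.94, rho = 0.95), Tgfbr2 (r = 0.94, rho = 0.93) and Smad3 (r = 0.85, rho = 0.90). In 2-sided permutation tests the adjusted p over the 63 relations computed was 6.3e-05 for both measures in the relations with Ski, Nrros and Tgfbr2, the smallest that the permutations allow, and 0.000194 (r) and 6.3e-05 (rho) for Smad3. Without the 2 libraries farthest from the median of Tgfb1, r was between 0.84 and 0.95 for these 4 genes, and after subtraction of the genotype means it was between 0.84 and 0.97. Many other genes did the same: 0.90% of 10054 other genes correlated with Tgfb1 at least as highly as Nrros did (by rho), 1.81% as highly as Tgfbr2 and 4.37% as highly as Smad3.

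Tgfbr1 and Smad2 also moved together (r = 0.86, rho = 0.79, permutation adjusted p = 6.3e-05 and 0.000969, and r = 0.80 without the 2 farthest libraries). This was common: 9.71% of 10054 other genes correlated with Tgfbr1 at least as highly as Smad2 did (by rho). Tgfbr1 ran against Smad3 (r = -0.64, rho = -0.64, permutation adjusted p = 0.0173 and 0.0254), and its r with Tgfb1 was -0.52 (permutation adjusted p = 0.0585). Smad7 correlated with Tgfb1 by r = 0.69 but by rho = 0.47, with permutation adjusted p of 0.00767 and 0.115. By rho, 31.3% of other genes correlated with Tgfb1 at least as highly as Smad7 did.

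2 properties of the libraries moved with these groups of genes. Of the 18 microglial markers, 11 are on the list, given below, of genes known to depend on TGF-beta. Their level may thus not be independent of the pathway. The microglial marker level correlated with Tgfb1 (r = 0.76, rho = 0.63), Tgfbr2 (r = 0.76, rho = 0.60) and Nrros (r = 0.77, rho = 0.61), with permutation adjusted p between 0.00084 and 0.0358, and with Smad7 (r = 0.64, rho = 0.62, permutation adjusted p = 0.014 and 0.0294). It gave r = 0.65 and rho = 0.54 with Ski (permutation adjusted p = 0.0113 and 0.0683) and r = 0.47 with Smad3 (permutation adjusted p = 0.0838). With Tgfbr1 it gave r = 0.03. The GC slope of a library, the log2 change of its counts per 10 points of GC content across genes, was between -0.26 (WT 1) and 0.32 (WT 7). It ran against Tgfbr1 (r = -0.86, rho = -0.85) and Smad2 (r = -0.89, rho = -0.90), with permutation adjusted p of at most 0.000105. Because the slope is fitted over genes by their GC content, genes of low GC tend to run against it by how it is made. These p-values are therefore no test of a relation particular to Tgfbr1 and Smad2. GC content of the longest transcript was 41.0% in Tgfbr1, 44.9% in Smad2 and between 49.4% and 56.9% in the other 7 genes. Its median was 49.3% over the 9560 other protein-coding genes with at least 10 CPM used for the slope, of which 9.64% lay below Tgfbr1. With Tgfb1 the slope gave r = 0.34 and rho = 0.35 (permutation adjusted p = 0.237 and 0.232). A score of astrocyte, neuronal and oligodendrocyte markers gave r between -0.41 and 0.01 with the 9 genes, and no adjusted p under 0.1. The part of either property in the levels was not tested.

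**Figure D4:**
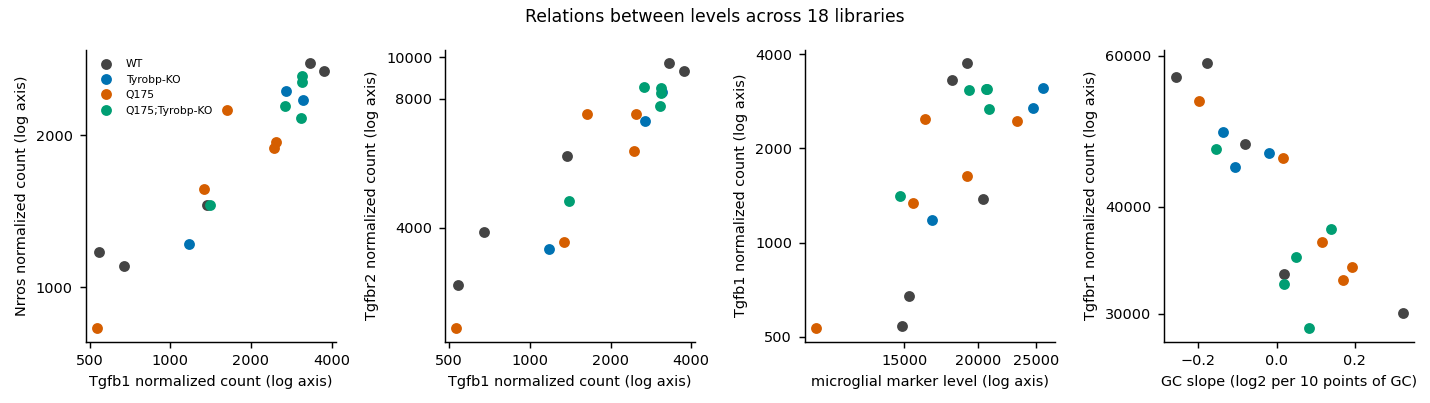
Levels of pairs of genes and of a gene against a library property, 1 point per library, coloured by genotype (normalized counts on log axes). Nrros and Tgfbr2 are high where Tgfb1 is high (r = 0.94 for both), Tgfb1 follows the microglial marker level less closely (r = 0.76), and Tgfbr1 is at 56644 in the library with the lowest GC slope (-0.26) and at 30068 in that with the highest (0.32).

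Genes with the most similar profiles over the 18 libraries were found as those with the smallest mean absolute difference of scaled log2 levels, among genes with at least 10 CPM. For Tgfb1 they were Abi3 (0.11 SD), Hnrnpul1 (0.11) and Rps6ka1 (0.11), and Ski had rank 81. For Nrros they were St6galnac4 (0.13), Csnk1e (0.15) and Ino80e (0.16), with Tgfbr2 at rank 64. For Tgfbr2 they were Dyrk2 (0.09), Tox4 (0.11) and Slc29a3 (0.11), with Nrros at rank 136. For Smad3 they were Aff1 (0.17), Eef2k (0.20) and Zfp592 (0.21), and for Tgfbr1 Tmem87a (0.15), Il13ra1 (0.17) and Asah1 (0.17). No member was among the 3 nearest genes of these 5, and the other 4 members were not examined in this way.

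None of the 9 genes passed an FDR of 0.1 in any comparison with edgeR's quasi-likelihood test, and none reached an unadjusted p under 0.05. DESeq2's Wald test also called none of the 9 in any comparison, while it called 234 genes in all for Q175 against WT, 168 for Tyrobp-KO against WT, 41 for Q175;Tyrobp-KO against Q175 and 680 for Q175;Tyrobp-KO against Tyrobp-KO. For Q175 against WT, 8 of 9 genes lay below 0 on the log2 scale, with a median of -0.18 beside -0.02 over all 18266 genes tested, and the fold changes ran from -0.25 (Tgfbr2) to 0.02 (Smad7). By that median, more of all genes lay below 0 than above it. Tgfb1, Nrros, Tgfbr2, Smad3 and Ski move together across libraries, so their signs are not independent. Without WT library 7, Tgfb1 (0.17), Smad3 (0.0124), Ski (0.0973) and Nrros (0.0300) lay above 0. The 95% interval was -1.34 to 0.93 for Tgfb1 and -0.58 to 0.19 for Smad2, which had the smallest unadjusted p (0.292, adjusted p 0.999). Of all genes 0% passed the FDR in this comparison, and 6.24% had an unadjusted p under 0.05. The groups overlapped for all 9 genes and did not overlap for 1.16% of all genes. All 15 astrocyte markers lay higher in Q175, 14 with an unadjusted p under 0.05 (median 1.27), and DESeq2 called 8, beside 234 of 18266 genes in all. With genotype in the model, all 15 also lay higher in females than in males (median 0.79). Of them 6 had an unadjusted p under 0.05 (edgeR), beside 5.18% of all genes. With sex as a term, genes with an unadjusted p under 0.05 in Q175 against WT fell from 1140 to 246 of 18266. Females were 4 of 5 in Q175 and 1 of 5 in WT, and the part of sex in the astrocyte markers was not tested. In these groups the astrocyte marker level was 481 ± 116 in WT (SD, n = 5) and 1174 ± 670 in Q175 (SD, n = 5). The part of these other cells in the result was not tested.

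For Tyrobp-KO against WT, the fold changes of the 9 genes ran from -0.09 (Smad3) to 0.29 (Smad7), with a median of 0.03. Tgfb1 differed by 0.27 with an interval of -1.07 to 1.61 (0.48-fold to 3.05-fold), and leaving out 1 library moved it between 0.0122 (without WT 6) and 0.62 (without WT 7). The astrocyte marker level was 1008 ± 823 in Tyrobp-KO (SD, n = 3), where 8 of 15 markers had an unadjusted p under 0.05 with a median of 1.07. Females were 2 of 3 in Tyrobp-KO and 1 of 5 in WT. The border macrophage level was 53.4 to 60.2 in Tyrobp-KO and 21.7 to 30.2 in WT, without overlap. The part of these cells in the result was not tested. Over all genes 0.0222% passed the FDR and 6.82% had an unadjusted p under 0.05. Groups overlapped for each of the 9, as they did for all but 4.5% of genes. The genes that passed were 4 in number, all lower, and Tyrobp was among them.

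For Q175;Tyrobp-KO against Q175, Tgfb1 lay 0.66 higher (95% interval -0.08 to 1.39, unadjusted p = 0.0745, adjusted p = 0.533), with 22 of 25 pairs of samples in that direction. Tgfbr2 differed by 0.48 (22 of 25 pairs), Nrros by 0.38, Smad3 by 0.37 and Ski by 0.33, all with adjusted p between 0.53 and 0.57 (edgeR), and Tgfbr1 by -0.18. The median over the 9 genes was 0.33 beside -0.05 over all genes tested, and 0.0111% of all genes passed the FDR, with 8.01% at an unadjusted p under 0.05. Groups overlapped for each of the 9, as they did for all but 0.853% of genes. The microglial marker level was 16938 ± 4631 in Q175 and 19223 ± 2566 in Q175;Tyrobp-KO (SD, n = 5 each), and its part in the result was not tested.

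Library 5 of Q175;Tyrobp-KO stood below the other 4 of its group for Tgfb1, Tgfbr2 and Smad3. Without it, the log2 differences from Q175 were 0.81 for Tgfb1, 0.60 for Tgfbr2, 0.48 for Nrros and 0.46 for Smad3. Unadjusted p was 0.0261, 0.0473, 0.0436 and 0.0332 in that order, and adjusted p was between 0.254 and 0.278 (edgeR), so none passed the FDR. The 8.01% of all genes given above belongs to the fit with library 5, and the share in the fit without it is not given. The library was singled out for its low values of these genes. Without Q175 library 4, the lowest of all 18 for Tgfb1, Tgfbr2, Nrros and Ski, the differences were smaller, at 0.44 for Tgfb1, 0.30 for Tgfbr2, 0.22 for Nrros and 0.17 for Ski. Over all 10 fits that left out 1 library, Tgfb1 lay between 0.44 and 0.84 and Tgfbr2 between 0.30 and 0.63. With the other settings included (22 alternatives), Tgfb1 went down to 0.33 and Tgfbr2 to 0.21, with adjusted p up to 0.93. Females were 4 of 5 in Q175 and 2 of 5 in Q175;Tyrobp-KO. With sex as a term, genes with an unadjusted p under 0.05 in this comparison fell from 1446 to 465 of 18059 (edgeR). The part of sex in the result was not tested.

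For Q175;Tyrobp-KO against Tyrobp-KO, Tgfbr1 lay lowest at -0.37 (95% interval -0.76 to 0.02, unadjusted p = 0.0607, adjusted p = 0.402), lower in 13 of 15 pairs of samples. Smad3 lay highest at 0.33 and Tgfb1 at 0.20. Of all genes 0% passed the FDR, although 13.2% had an unadjusted p under 0.05 and 9.04% had groups that did not overlap, which was so for none of the 9. The microglial marker level was 22405 ± 4948 in Tyrobp-KO (SD, n = 3). In a fit with that level as a term, added after seeing the data, 5 genes passed the FDR as higher: Tgfbr2 by 0.64 (adjusted p = 0.00952), Tgfb1 by 0.67 (0.0136), Nrros by 0.47 (0.0247), Smad3 by 0.51 (0.0297) and Ski by 0.40 (0.0718). The same fit called 23.2% of all genes tested and called 11.3% of all genes tested as higher, on 8 libraries of which 3 were Tyrobp-KO. The term is itself made from these counts, and 11 of its 18 markers are on the list, given below, of genes known to depend on TGF-beta. The same term turned Tgfb1 to -0.71 in Tyrobp-KO against WT (adjusted p = 0.559, edgeR).

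**Figure D5:**
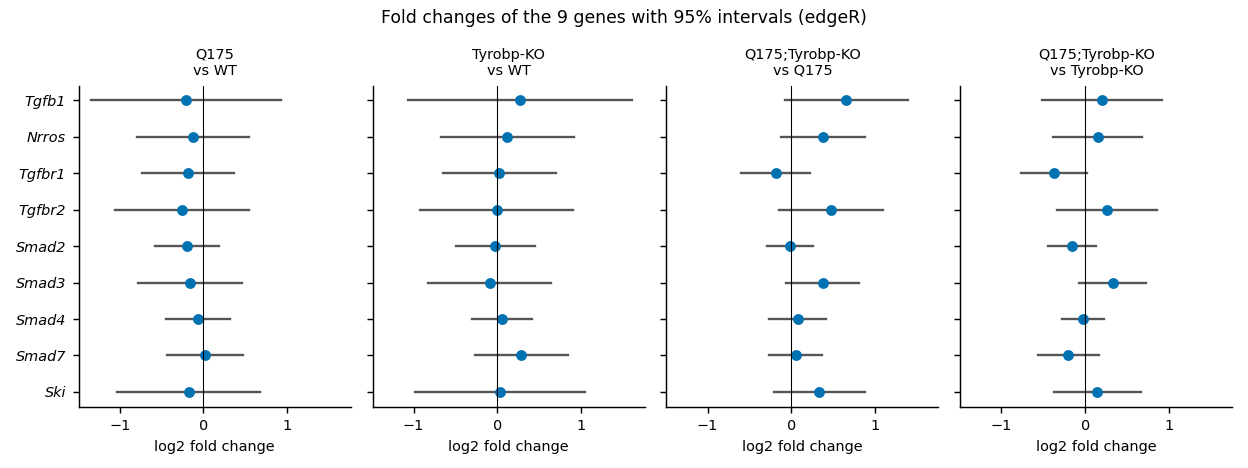
Log2 fold changes (points) of the 9 genes in 4 comparisons with their 95% intervals (lines), from edgeR. Each interval includes 0, and those of Tgfb1 are the widest, from -1.07 to 1.61 for Tyrobp-KO against WT.

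Over both backgrounds, Tyrobp deletion went with fold changes from -0.12 (Tgfbr1) to 0.46 (Tgfb1), and the smallest unadjusted p of the 9 genes was 0.209 (adjusted p = 0.762), while 0.161% of all genes passed. The Q175 allele over both backgrounds gave 8 of 9 genes below 0 (median -0.05 beside -0.005 over all genes) and a smallest unadjusted p of 0.104. The interaction of the 2 alleles passed for none of the 9 genes (smallest unadjusted p = 0.186), so a different effect of Tyrobp deletion in Q175 mice was not detectable at this spread. For females against males with genotype in the model, 7 of 9 genes lay below 0 (median -0.05 beside 0.03 over all genes), and the smallest unadjusted p was 0.0988. Signs of genes that move together are not independent. Of all genes 0% passed for the Q175 allele and for the interaction, and 0.043% for sex. An unadjusted p under 0.05 was found in none of the 9 genes and in 8.81% of all genes for Tyrobp deletion, 5.1% for the Q175 allele, 6.01% for the interaction and 5.18% for sex.

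Among the other listed genes of the pathway, which are 70 genes on the ligand, receptor, SMAD, inhibitor and BMP or activin lists, none passed with edgeR in any 2-group comparison. An unadjusted p under 0.05 was found for 8 of 63 tested in Q175 against WT (6.24% of all genes), 3 of 63 in Tyrobp-KO against WT (6.82%), 8 of 63 in Q175;Tyrobp-KO against Q175 (8.01%) and 6 of 62 in Q175;Tyrobp-KO against Tyrobp-KO (13.2%). In comparisons where it called 234, 168, 41 and 680 of all genes, DESeq2 called Bmpr1b and Smad9 higher in Q175 against WT, Bmp4 lower in Tyrobp-KO against WT, none in Q175;Tyrobp-KO against Q175, and Crebbp, Tab1 and Usp4 higher in Q175;Tyrobp-KO against Tyrobp-KO. In Q175 against WT it also called 8 of 15 astrocyte markers higher. The part of other cells in these calls was not tested. The genes with the smallest p of each list are given as values. Tgfb3, a second ligand, stood at 80.2 ± 11.4 normalized counts (WT) and 145 ± 42.5 (Q175) (log2 difference 0.83, adjusted p = 0.382, edgeR). Ltbp4, which stores latent TGF-beta in matrix, had 657 ± 298 in WT and 250 ± 200 in Tyrobp-KO (-1.40, adjusted p = 0.61, edgeR). Lrrc32 differed by -1.43 between Q175;Tyrobp-KO and Q175 (adjusted p = 0.533) at 17.5 ± 7.66 normalized counts in Q175 and 6.49 ± 4.96 in Q175;Tyrobp-KO. Of the adaptors of the SMAD-independent arm, Tab1 differed by 0.35 between Q175;Tyrobp-KO and Tyrobp-KO (adjusted p = 0.304) and Traf6 by 0.33 between Q175;Tyrobp-KO and Q175 (adjusted p = 0.533). In the same comparison with Q175, Tgfbrap1, a receptor-associated protein, differed by 0.38 (adjusted p = 0.533). In the SMAD list, Smad9, a BMP-branch SMAD, differed by 1.16 in Q175 against WT (adjusted p = 0.365), from 20.1 to 45.6 normalized counts on average. Between Q175;Tyrobp-KO and Tyrobp-KO, the coactivator Crebbp differed by 0.37 (adjusted p = 0.291) and the importin Ipo7 by -0.39 (adjusted p = 0.324).

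The inhibitors with the smallest p were Usp4, a deubiquitinase (0.38 between Q175;Tyrobp-KO and Tyrobp-KO, adjusted p = 0.291), Ldlrad4 (0.35 between Q175;Tyrobp-KO and Q175, adjusted p = 0.533) and Skil (-0.31 between Q175;Tyrobp-KO and Tyrobp-KO, adjusted p = 0.404). In the BMP branch Bmp4 had 20.4 ± 6.49 normalized counts in WT and 1.38 ± 1.25 in Tyrobp-KO (adjusted p = 0.565, edgeR), and the receptor Bmpr1b differed by 1.82 between Q175 and WT (adjusted p = 0.345), at 437 ± 388 and 122 ± 32.2. Of genes that TGF-beta induces in many cell types, Id3 differed by 0.87 and Fn1 by -0.98 between Q175 and WT (adjusted p = 0.401 and 0.413), and Ccn2 by -2.08 between Q175;Tyrobp-KO and Tyrobp-KO (adjusted p = 0.291). Fn1 is also on the list, described below, of genes raised in microglia without TGF-beta receptors, so its direction has no single reading here.

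Of the 16 microglial genes known to depend on TGF-beta, 11 of which are also on the list of microglial markers, none passed with edgeR in any 2-group comparison, and an unadjusted p under 0.05 was found for 0, 1, 3 and 3 of them in the same order of comparisons, beside the 6.24%, 6.82%, 8.01% and 13.2% of all genes. DESeq2 called Gpr34 and P2ry13 lower in Q175;Tyrobp-KO against Tyrobp-KO, where it called 680 of 17723 genes in all, and none of the 16 elsewhere. Their median log2 difference was -0.18 in Q175 against WT, 0.26 in Tyrobp-KO against WT, 0.35 in Q175;Tyrobp-KO against Q175 and -0.10 in Q175;Tyrobp-KO against Tyrobp-KO, beside medians of all genes of -0.02, 0.02, -0.05 and -0.01. The purinergic receptor P2ry13 and Gpr34 differed by -0.47 and -0.65 between Q175;Tyrobp-KO and Tyrobp-KO (adjusted p = 0.294 and 0.291). Ltc4s, leukotriene C4 synthase, differed by 0.55 between Tyrobp-KO and WT (adjusted p = 0.61).

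A further list held 15 genes known to be raised in microglia without TGF-beta receptors, many of which also belong to the disease-associated state that depends on TREM2 and TYROBP. The list was chosen with earlier results of these data known. The paper reports Clec7a and Spp1 among genes lower in Q175;Tyrobp-KO than in Q175 microglia. The counts of calls, p-values and signs and the medians below are therefore no test of the list. Over both backgrounds 4 of the 15 passed as lower with Tyrobp deletion and none as higher, beside 0.161% of all genes called: Spp1 (osteopontin), Clec7a (the beta-glucan receptor dectin-1), Cst7 (a cysteine protease inhibitor) and Lpl (lipoprotein lipase). Spp1 fell by 6.05 (adjusted p = 0.000402), from 1062 ± 458 normalized counts in WT and 1064 ± 1240 in Q175 to 10.9 ± 2.09 in Tyrobp-KO and 20.7 ± 27.4 in Q175;Tyrobp-KO. Clec7a fell by 2.30 (adjusted p = 0.00113), from 1487 ± 430 and 1174 ± 758 to 264 ± 39.2 and 275 ± 148. Cst7 fell by 2.34 (adjusted p = 0.00197) and Lpl by 2.53 (adjusted p = 0.0129). The median of the list was -0.83 beside -0.02 over all genes. In Tyrobp-KO against WT, Spp1 and Clec7a passed as lower (adjusted p = 0.00406 and 0.0213, edgeR), and in Q175;Tyrobp-KO against Q175 none passed with edgeR. There 8 had an unadjusted p under 0.05, beside 8.01% of all genes, and 15 of 15 lay below 0, with a median of -1.07 beside -0.05 over all genes. DESeq2 called Spp1, Clec7a, Cst7 and Lpl lower in both comparisons. It called 168 of 18017 genes in all in Tyrobp-KO against WT, and 41 of 18059 in Q175;Tyrobp-KO against Q175. In Tyrobp-KO against WT only Spp1 passed without Tyrobp-KO library 15 or 19, and 4 passed without WT library 6. Clec7a kept a log2 difference of -2.59 to -2.37 without any 1 library, and its adjusted p was 0.156 with sex and 0.131 with the score of other cell types as a term (edgeR).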

How the data were processed

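The authors isolated striatal microglia with anti-CD11b magnetic beads, made SMART-Seq v4 libraries without strand information, aligned reads with STAR to GRCm38 and counted reads per gene with featureCounts (per the methods and labels, the labels naming GRCh38, a human build). The labels give 2 striata per sample and the methods 1, with striata dissociated mouse by mouse. The labels do not tie libraries to mice, so p-values measure the spread between libraries, which may in part be technical. The deposited values are raw counts, without normalization. The table has 2 columns that match no sample, which were not used. All 55536 Ensembl identifiers matched GENCODE M21.

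Counts were tested with edgeR 4.0.16 (R 4.3.3), TMM scaling, a filter that kept genes reaching 1 CPM in 1 or more libraries, and a Benjamini-Hochberg FDR of 0.1 over all genes, on the samples of each comparison alone. Intervals are 95%. RPKM used exonic lengths. Relations across libraries used log2 normalized counts plus 1 and 100000 permutations (the smallest p is 1e-05), and were computed after the values were seen, as were fits with the microglial marker level or GC slope as a term. The other alternatives were DESeq2 1.42.0, other scalings and filters, an FDR of 0.05, robust fitting, sex or a score of other cell types as a term, 1 fit over all groups, and leaving out each library. The fits were tested on simulated data. Named were the 9 members, called genes of the lists, the 3 genes per list with the smallest p, and the 3 nearest profiles. The members and lists were chosen with earlier results of these data known. Promoters are from RefSeq (4 of 9 members shown). Totals per library were 11260410 to 29771983 counts, of amplified cDNA reads without molecular identifiers, which are not independent molecules.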

Additional observations from a re-analysis of the deposited data

Results flagged for a closer look

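In the group of 5 Q175;Tyrobp-KO libraries, library 5 was far below the other 4 for 3 genes. Its Tgfb1 level was 1406 normalized counts, with a gap to the next library of 0.75 of the group's whole range. Its Tgfbr2 level was 4626 (a gap of 0.78 of the range) and its Smad3 level 1531 (0.77). Chance flags about 1 in 20 groups, and 27 groups were examined. The 3 genes move together across libraries, so the flags are not independent.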

How the results depend on the processing

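With 3 to 5 libraries a group, the spread between libraries set the limit: the 95% interval of Tgfb1 in Q175 against WT ran from -1.34 to 0.93, and differences inside it were not detectable. No paired analysis was possible because no replicate number occurs in more than 1 genotype. No alternative called any of the 9 genes, except that with the microglial level as a term 5 were called in Q175;Tyrobp-KO against Tyrobp-KO (Tgfb1 0.67, Tgfbr2 0.64, Smad3 0.51, Ski 0.40 and Nrros 0.47 on the log2 scale). Leaving out 1 library at a time also called none of them, with a smallest adjusted p of 0.254. That term and the GC slope were added after seeing the data.

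Calls over all genes depended on the tool. DESeq2 called 234 genes in Q175 against WT (0 with edgeR), 168 in Tyrobp-KO against WT (4), 41 in Q175;Tyrobp-KO against Q175 (2), 680 in Q175;Tyrobp-KO against Tyrobp-KO (0), 2 for the interaction (0), 151 for Tyrobp deletion over both backgrounds (30) and 1 for the Q175 allele over both (0). In Tyrobp-KO against WT, 15 were called with no filter, 2 with the score of other cell types as a term, 8 in 1 fit over all 4 groups and 324 with the microglial level as a term. In Q175;Tyrobp-KO against Q175 the count was 1 at an FDR of 0.05 and with sex as a term or the score, 9 with no filter, 14 in 1 fit and 6 with the microglial level. That level as a term gave 4116 calls in Q175;Tyrobp-KO against Tyrobp-KO and 46 for Tyrobp deletion over both backgrounds. Leaving out 1 library gave 2 to 8 calls in Tyrobp-KO against WT (2 without Tyrobp-KO 15 or 19, 8 without WT 6), 1 to 5 in Q175;Tyrobp-KO against Q175 (5 without Q175 9) and 24 to 64 for Tyrobp deletion (64 without Q175 17). Of the 15 genes raised without TGF-beta receptors, 4 were called in Tyrobp-KO against WT by DESeq2, with no filter and with the microglial level, 1 with a term for sex or for the score, and 1 to 4 without 1 library, against 2 in the edgeR fit. In Q175;Tyrobp-KO against Q175, 4 were called by DESeq2, 3 in 1 fit, and 1 with no filter or the microglial level, against 0. The mean of Smad4 in Q175;Tyrobp-KO was 1142 with total counts, and no other level moved by its SD. Scaling to total counts moved the median of all genes from -0.05 to 0.08 in Q175;Tyrobp-KO against Q175 and from 0.04 to 0.15 for the interaction. The causes were not tested.

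For Q175 against WT, log2 differences that changed sign were with the microglial level as a term Tgfb1 0.0400, with the GC slope as a term Tgfbr1 0.0145 and Smad7 -0.00778, with the score as a term Tgfbr2 0.0345, Smad3 0.20 and Smad7 -0.0289, in DESeq2 Smad7 -0.00236, with DESeq2's size factors Smad7 -0.0025, with total counts Smad7 -0.0692, with no filter Smad7 -0.0155, with sex as a term Smad7 -0.12 and in 1 fit over all 4 groups Smad7 -0.00424. Without 1 library the range was for Tgfb1 from -0.44 to 0.17, Smad3 from -0.32 to 0.0124, Smad4 from -0.15 to 0.0472, Smad7 from -0.0952 to 0.0836, Ski from -0.35 to 0.0973 and Nrros from -0.26 to 0.0398. For Tyrobp-KO against WT, log2 differences that changed sign were with the microglial level as a term Tgfb1 -0.71, Smad2 0.0942, Ski -0.56 and Nrros -0.50, with total counts Tgfbr1 -0.00667, Smad4 -1.84e-05 and Ski -0.0199, in 1 fit over all 4 groups Tgfbr1 -0.0435, Smad4 -0.0139 and Ski -0.0447, with the GC slope as a term Tgfbr1 -0.0195, Tgfbr2 0.23 and Smad3 0.11, with the score as a term Tgfbr2 0.22, Smad2 0.0231 and Smad3 0.0126 and with sex as a term Smad2 0.19 and Ski -0.0816. Single libraries left out took Tgfbr1 from -0.0983 to 0.15, Tgfbr2 from -0.24 to 0.24, Smad2 from -0.13 to 0.0715, Smad3 from -0.30 to 0.0797, Smad4 from -0.0291 to 0.13, Ski from -0.17 to 0.28 and Nrros from -0.0548 to 0.34. For Q175;Tyrobp-KO against Q175, log2 differences that changed sign were with total counts Smad2 0.13, with no filter Smad2 0.00753, with sex as a term Smad7 -0.00747, with the score as a term Smad7 -0.0114 and with the microglial level as a term Smad7 -0.0538. Without 1 library the range was for Smad2 from -0.071 to 0.0418 and Smad4 from -0.0292 to 0.16. For Q175;Tyrobp-KO against Tyrobp-KO, log2 differences that changed sign were with total counts Smad4 0.0563 and with no filter Smad4 0.0137. Single libraries left out took Tgfb1 from -0.0993 to 0.47, Tgfbr2 from -0.00778 to 0.50, Smad4 from -0.0983 to 0.0638, Ski from -0.0297 to 0.30 and Nrros from -0.0873 to 0.34. For Tyrobp deletion over both backgrounds, log2 differences that changed sign were with the microglial level as a term Tgfb1 -0.076, Tgfbr2 -0.16, Smad3 -0.0234, Ski -0.16 and Nrros -0.10, with total counts Smad2 0.0504 and with no filter Smad2 0.000593. Without 1 library the range was for Smad2 from -0.0821 to 0.0182.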
